A study of Mus musculus with 14 samples.

Results

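Dermal adipocytes are the fat cells that lie under the dermis and around hair follicles, and 10 genes that mark them were followed here in mouse skin and cultured fibroblasts carrying a mutant or normal collagen III gene. The genes were chosen by name: Adipoq, Lep and Retn for secreted adipokines, Plin1, Plin4 and Cidec for proteins of the lipid droplet, Fabp4, Lpl and Slc2a4 for fuel uptake, and Pparg for the transcription factor that drives fat cell formation. Earlier results of these data were known when they were chosen. All 10 of the 10 genes were measured, on 14 probes, out of 19532 genes named on the array. Tsk2 is a tight-skin mutation of Col3a1, the gene of the type III collagen chain, that causes skin fibrosis in the mouse. The tested skin came from 4-week-old female Tsk2 mice (4 arrays) and was set against skin of 4-week-old female WT mice (4 arrays). The cultured cells were fibroblasts of Col3a1 knockout mice that had been transfected with Tsk2 Col3a1 (3 arrays) or with WT Col3a1 (3 arrays), so both fibroblast groups lacked their own Col3a1. The fibroblast arrays are numbered 1, 2 and 3 with Tsk2 Col3a1 and 1, 3A and 3B with WT Col3a1. WT replicates 3A and 3B share a number and may not be independent, so n counts arrays there. The labels do not say whether the fibroblast samples came from separate transfections or animals, so their p-values may reflect technical spread only. The study text counts 3 mice per genotype for skin, whereas 4 labelled skin samples per genotype were analysed here.

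White adipocytes store triglyceride in a large lipid droplet coated by perilipins, and release fatty acids when energy is short. PPAR gamma, together with C/EBP factors, switches on most genes of the mature adipocyte. The mouse dermal fat layer is known to grow and shrink with the hair cycle, and it is known to thin in several forms of skin fibrosis.

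Each value is the deposited log ratio of a sample to a universal mouse reference RNA, taken as log2, so that 1 unit is a doubling and a value of 0 equals the level in the reference. A level can therefore be compared between samples for the same gene, and not between genes. In whole skin, a change in the number of fat cells and a change in RNA per fat cell cannot be told apart. Correlations between replicate arrays lay between 0.743 and 0.868. The array of WT skin replicate 2 stood apart, with 30.1% of its probes listed at exactly 0, and its correlations with the other WT skin arrays were 0.743 to 0.777. None of the 10 genes had such a value or any other heavily repeated value on a skin array. Slc2a4, Plin1, Lep, Rxrg and the counts of calls in skin are also given without this array. Counts at an unadjusted p and list medians are given with it only.

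Promoter sequences of 4 of the genes are shown first, for the regulator Pparg, a droplet protein and a pair of adipokines, none of which passed the test between Tsk2 and WT skin. Fabp4, Lpl and Slc2a4 are named only. They are the 250 bases before the start of RefSeq transcripts on build GRCm38.p6, which held 7 of the 10 genes. The windows are the third Pparg promoter at chr6:115421816-115422065 on the plus strand, Plin4 at chr17:56109783-56110032 on the minus strand, Lep at chr6:29059971-29060220 on the plus strand and Adipoq at chr16:23146286-23146535 on the plus strand. Capitals mark the CCAAT box (CCAAT or its reverse complement ATTGG), the TATA variant TATAAG and the C/EBP palindrome TTGCGCAA.

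Pparg promoter 3: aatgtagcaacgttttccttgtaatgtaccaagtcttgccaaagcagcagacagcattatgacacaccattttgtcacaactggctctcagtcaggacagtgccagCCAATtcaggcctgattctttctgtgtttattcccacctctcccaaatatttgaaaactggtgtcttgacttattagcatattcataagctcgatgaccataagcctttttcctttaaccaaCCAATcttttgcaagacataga

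Plin4 promoter: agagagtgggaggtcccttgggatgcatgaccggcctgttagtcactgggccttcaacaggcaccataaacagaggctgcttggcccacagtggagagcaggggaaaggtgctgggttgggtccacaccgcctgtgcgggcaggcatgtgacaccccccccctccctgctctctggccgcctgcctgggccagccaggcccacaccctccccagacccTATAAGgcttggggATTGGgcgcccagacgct

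Lep promoter: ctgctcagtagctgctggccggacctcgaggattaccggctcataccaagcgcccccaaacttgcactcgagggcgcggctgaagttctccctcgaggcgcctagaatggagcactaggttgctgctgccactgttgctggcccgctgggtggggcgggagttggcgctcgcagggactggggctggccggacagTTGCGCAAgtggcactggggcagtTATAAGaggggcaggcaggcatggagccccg

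Adipoq promoter: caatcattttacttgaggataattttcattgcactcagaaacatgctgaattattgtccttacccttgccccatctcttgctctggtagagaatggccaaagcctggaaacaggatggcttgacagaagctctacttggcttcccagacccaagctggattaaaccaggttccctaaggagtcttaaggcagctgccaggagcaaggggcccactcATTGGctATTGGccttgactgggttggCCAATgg

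The letters CCAAT, on either strand, occurred in 4 of the 10 windows found for these genes (2 of the Pparg windows, Adipoq and Plin4) and in 33.8% of all 32851 windows. In Pparg promoter 3 they began 144 and 22 bases before the start, and in Adipoq at 34, 27 and 7 bases before it. The C/EBP palindrome TTGCGCAA was found in the Lep window alone among the 10, 55 bases before the start, and in 0.164% of all windows. TATAAG occurred in 3 of the 10 windows, 31 bases before the Lep start, 32 before the Plin4 start and 25 before the start of the second Pparg window, and in 6.65% of all windows. The nuclear receptor half-site AGGTCA was in 2 of the 10 windows and in 14.02% of all windows. Its direct repeat with a single base between, the PPAR response element, which overlaps the half-site, was in 0 of the 10 and in 0.0335% of all. Both strands were searched, and these matches describe letters only.

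In skin, the question was which fat cell genes differ between Tsk2 and WT mice at 4 weeks. Slc2a4, the insulin-responsive glucose transporter GLUT4 of fat and muscle, was higher in Tsk2 skin and was the only 1 of the 10 genes past an adjusted p of 0.05 (limma, Benjamini-Hochberg over 19532 genes). All 10 means were higher in Tsk2 skin, where 52.7% of all genes had a higher mean. Without WT replicate 2 the Lep difference turned to -0.07. The count of 1 higher call among 10 genes stands beside a background of 1.91% of genes called higher and 2.91% called in either direction. At an unadjusted p under 0.05, 4 of the 10 genes were higher, against 13.1% of all genes. The median difference of the 10 genes was 0.62, against 0.030 over all genes, and the 10 differences ranged from 0.23 to 1.45.

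**Figure D1:**
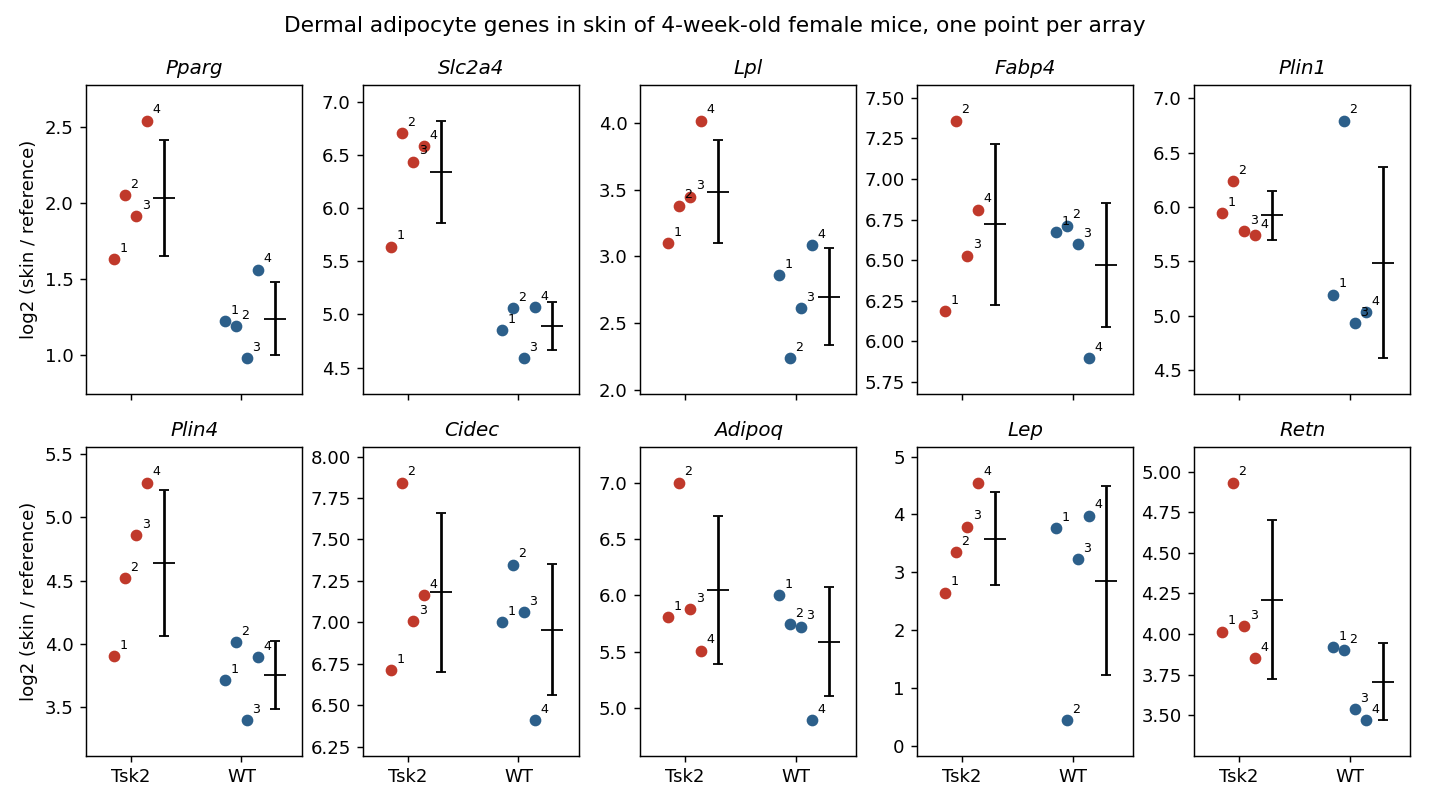
Levels of the 10 genes as log2 of skin over the reference RNA, in 4 Tsk2 and 4 WT skin arrays, with the replicate number at each point and bars for mean and SD. Each panel has its own axis, which does not start at 0. The groups were apart for Slc2a4, Pparg and Lpl and overlapped for the other 7 genes.

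Pparg, the nuclear receptor at the head of the fat cell programme, read 1.63, 2.05, 1.91 and 2.54 in Tsk2 skin, against 1.22, 1.19, 0.98 and 1.56 in WT skin. Every Tsk2 array lay above every WT array, with Tsk2 replicate 1 and WT replicate 4 only 0.07 apart on the log2 scale. The difference was 0.80 (SE 0.22) with an adjusted p of 0.0846 from limma, which missed the threshold. An exact two-sided permutation test gave an unadjusted p = 0.0286, the smallest value that 4 against 4 arrays allow. Any gene with fully separated groups reaches that value, so it restates the separation. Of all genes, 9.33% had every Tsk2 array above every WT array.

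Slc2a4 read 5.64, 6.71, 6.44 and 6.59 in Tsk2 skin, against 4.85, 5.06, 4.59 and 5.07 in WT skin. All 4 Tsk2 arrays were above all 4 WT arrays, and Tsk2 replicate 1 was the lowest of its group. The means were 6.35 ± 0.48 and 4.89 ± 0.23 (SD, n = 4 each), a difference of 1.45 (95% interval 0.88 to 2.02) or 2.74-fold. Its adjusted p was 0.0305 by limma. The call was lost when any of 6 of the 8 arrays was left out: without any 1 of Tsk2 replicates 2, 3 and 4 or WT replicates 1, 2 and 3 the adjusted p was 0.0630 to 0.105, with differences of 1.33 to 1.51. In each of those 6 fits, 0 of all genes were called in skin. Without WT replicate 2, the array that stood apart, the difference was 1.51 and the adjusted p 0.0630.

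Slc2a4 is also expressed by skeletal muscle. All 14 of 14 measured muscle markers had a higher mean in Tsk2 skin, and 13 of them did not pass the test. Actn3, the alpha-actinin of fast fibres, passed it with a difference of 2.01 (adjusted p = 0.0261, limma). Of all genes, 52.7% had a higher mean and 1.91% were called higher. The mean of the muscle list ran from 4.77 to 5.94 over the Tsk2 arrays and from 3.84 to 4.34 over the WT arrays, and 0 of its 184 skin probe values were at exactly 0. The part of muscle RNA in the Slc2a4 difference was not tested. In an arrangement chosen after the values were seen, Slc2a4 was set against the mean of Adipoq, Plin1 and Cidec within each array. It lay at -0.51, -0.32, 0.22 and 0.45 relative to that mean in Tsk2 skin, against -1.22, -1.57, -1.32 and -0.38 in WT skin. These values overlapped at WT replicate 4, which lay above Tsk2 replicate 1.

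**Figure D2:**
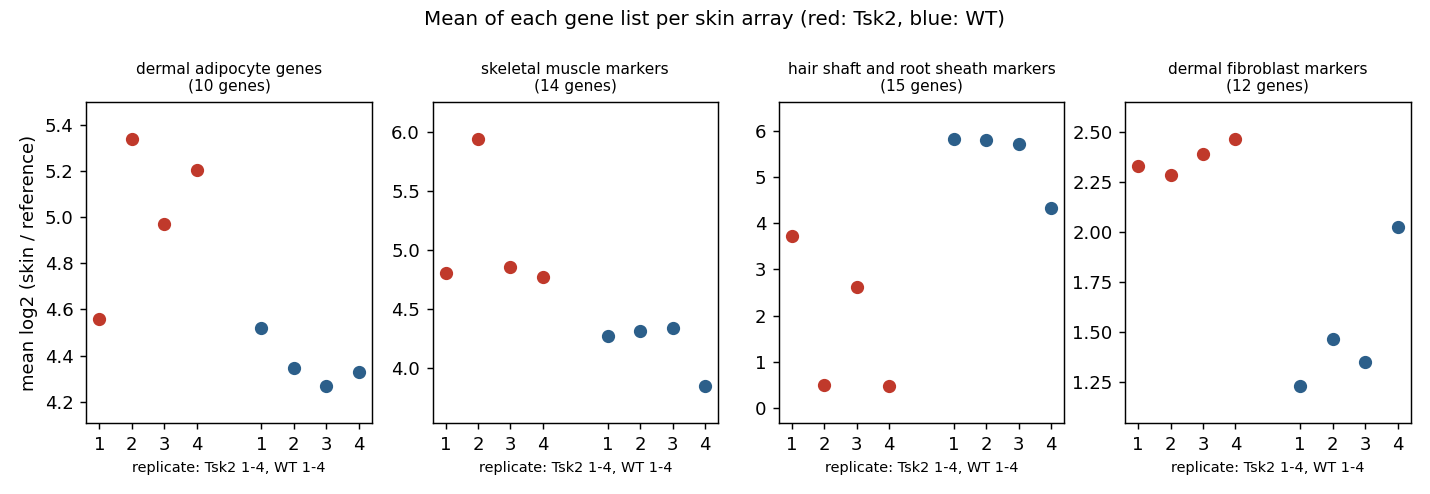
Mean log2 level per skin array of the 10 dermal adipocyte genes, 14 skeletal muscle markers, 15 hair markers and 12 dermal fibroblast markers, with Tsk2 replicates 1 to 4 left of WT replicates 1 to 4. Axes differ between panels and do not start at 0. Muscle list means were 4.77 to 5.94 in Tsk2 and 3.84 to 4.34 in WT skin, and hair list means 0.47 to 3.72 in Tsk2 and 4.32 to 5.82 in WT skin.

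Lpl, the lipase that frees fatty acids from circulating lipoproteins for uptake, read 3.10, 3.38, 3.45 and 4.02 in Tsk2 skin, against 2.86, 2.24, 2.61 and 3.08 in WT skin. The groups did not overlap, although Tsk2 replicate 1 exceeded WT replicate 4 by only 0.014. The difference was 0.79 (SE 0.25) with a limma adjusted p of 0.112, and the unadjusted exact two-sided permutation p was 0.0286. Its 2 probes gave differences of 1.07 and 0.51. Lpl is also made by muscle. Counted together, 3 of the 10 genes (Slc2a4, Pparg and Lpl) had every Tsk2 array above every WT array, as did 9.33% of all genes.

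Fabp4, the fatty acid carrier of the fat cell cytoplasm, read 6.18, 7.36, 6.53 and 6.81 in Tsk2 skin, against 6.67, 6.71, 6.60 and 5.90 in WT skin. The groups overlapped, and Tsk2 replicates 1 and 3 lay below WT replicates 1, 2 and 3. The difference of 0.25 (95% interval -0.40 to 0.90) did not pass the test (adjusted p = 0.639, limma). Its 3 probes disagreed: the differences were 0.48, 0.47 and -0.20.

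Among the droplet genes, Plin4, a perilipin of adipocyte droplets, read 3.90, 4.52, 4.86 and 5.27 in Tsk2 skin, against 3.71, 4.02, 3.40 and 3.90 in WT skin. Tsk2 replicates 2, 3 and 4 exceeded every WT array and Tsk2 replicate 1 lay within the WT range. The difference was 0.88 (SE 0.29), with a limma adjusted p of 0.121 and an unadjusted exact permutation p of 0.0571.

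Plin1, which guards the droplet against lipolysis, read 5.94, 6.24, 5.78 and 5.74 in Tsk2 skin, against 5.20, 6.79, 4.94 and 5.03 in WT skin. WT replicate 2, the array that stood apart, held the highest Plin1 value of all 8, and the other 3 WT arrays lay below every Tsk2 array. The difference was 0.44 with all arrays (adjusted p = 0.547, limma) and 0.87 without WT replicate 2 (adjusted p = 0.0696). Cidec, which helps small droplets merge into a large droplet, read 6.71, 7.84, 7.01 and 7.16 in Tsk2 skin, against 7.0, 7.35, 7.06 and 6.41 in WT skin. These groups overlapped widely, with a difference of 0.23 (95% interval -0.42 to 0.87, limma adjusted p = 0.671).

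Of the adipokines, Adipoq, which encodes adiponectin, read 5.81, 7.0, 5.88 and 5.51 in Tsk2 skin, against 6.001, 5.74, 5.72 and 4.89 in WT skin. Only Tsk2 replicate 2 lay above every WT array. The difference was 0.46 (95% interval -0.36 to 1.27) with an adjusted p of 0.482 in limma. Retn, which encodes resistin, read 4.02, 4.93, 4.05 and 3.85 in Tsk2 skin, against 3.92, 3.90, 3.54 and 3.47 in WT skin. Here 3 of 4 Tsk2 arrays exceeded every WT array, with a difference of 0.51 (SE 0.25, limma adjusted p = 0.276).

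Lep, which encodes the satiety hormone leptin, read 2.65, 3.35, 3.79 and 4.55 in Tsk2 skin, against 3.76, 0.45, 3.23 and 3.98 in WT skin. WT replicate 2 was far below all other skin arrays, and the remaining values overlapped. The difference of 0.73 (SE 0.76, limma adjusted p = 0.607) turned to -0.07 without WT replicate 2. With probes of a gene averaged, Lep was the only 1 of the 10 genes whose skin difference changed sign under the alternatives run.

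The 10 genes did not order the Tsk2 arrays in the same way. Tsk2 replicate 2 was the highest of its group for 6 genes (Adipoq, Retn, Plin1, Fabp4, Cidec and Slc2a4), and Tsk2 replicate 4 for the other 4 (Lep, Plin4, Pparg and Lpl). Tsk2 replicate 4 was at the same time the lowest Tsk2 array for Adipoq, Retn and Plin1, and Tsk2 replicate 1 for the remaining 7. In WT skin, replicate 4 was highest for Lep, Slc2a4, Pparg and Lpl and lowest for Adipoq, Retn, Fabp4 and Cidec. Keratinocyte and muscle list means were also highest in Tsk2 replicate 2, at 5.62 and 5.94, where the other 3 Tsk2 arrays ran from 4.34 to 4.62 and from 4.77 to 4.86. The part of tissue composition in these orders was not tested. Across the 8 skin arrays, which include the genotype difference, Pearson correlations of a gene with the mean of the other 9 were 0.93 for Slc2a4, 0.85 for Pparg, 0.80 for Plin4 and 0.76 for Lpl. They were lowest for Plin1 (0.20) and Lep (0.15), and these values are descriptions of 8 arrays.

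Other genes of the adipocyte pathways were counted from lists chosen by function. The choice was made with earlier results of these data known, so counts set against all genes are descriptions only. No secreted adipocyte protein of 11 measured passed the test in skin, with a median difference of 0.53. The lowest p-values there belonged to Metrnl, the meteorin-like hormone, which averaged 0.96 in Tsk2 and 1.82 in WT skin (adjusted p = 0.0792, limma), and Rarres2, which encodes chemerin, with a difference of 0.63 (adjusted p = 0.117). Of 14 genes of droplets and lipolysis 0 passed, with a median of 0.49, and Plin5, a perilipin of oxidative tissues, came nearest at 1.56 (adjusted p = 0.0567), followed by Plin2 at 0.67 (adjusted p = 0.0952). At an unadjusted p under 0.05, 3 of the 11 secreted proteins were higher and 1 lower, and 6 of the 14 droplet genes were higher and 0 lower, where 13.1% of all genes were higher.

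Lipid synthesis and uptake each held a single call, where 1.91% of all genes were called higher. Scd1, the desaturase that makes oleate, was higher in Tsk2 skin at 3.64, 4.85, 3.98 and 4.45, against 2.78, 2.60, 2.44 and 3.35 in WT skin. These values did not overlap (difference 1.44, adjusted p = 0.0474, limma), and Scd1 was the only 1 of 17 genes of fatty acid and triglyceride synthesis that passed, in a list with a median of 0.60. At an unadjusted p under 0.05, 11 of those 17 genes were higher and 1 lower, against the 13.1% of all genes given above. Vldlr, a receptor for triglyceride-rich lipoproteins, was the only 1 of 14 genes of lipid uptake and insulin response, with a difference of 1.36 (adjusted p = 0.0481) and a list median of 0.47, and 9 of the 14 were higher and 1 lower at an unadjusted p under 0.05. Scd3, a desaturase of the sebaceous gland, was higher by 1.11 (adjusted p = 0.0427) and was the only 1 of 8 sebaceous markers to pass. In that list 5 of the 8 means were higher, and 3 genes were higher and 1 lower at an unadjusted p under 0.05. Fads3, on the same list, went the other way, by -1.68 (adjusted p = 0.0883, limma).

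No adipogenic transcription factor of 14 passed, with a median of 0.50, although 7 were higher and 0 lower at an unadjusted p under 0.05, against 13.1% of all genes higher. Stat5a, a cytokine-activated factor that promotes adipogenesis, differed by 1.196 (adjusted p = 0.0568, limma) and Rxrg, a heterodimer partner of PPAR gamma, by 2.49 (adjusted p = 0.137). Rxrg was listed at exactly 0 on WT replicate 2, against 3.26 to 4.31 on the other WT arrays, and without that array its difference was 1.503 (adjusted p = 0.0790). Among 14 genes of preadipocytes and of restraint on adipogenesis, 3 were higher in Tsk2 skin: Gata2 by 1.25 (adjusted p = 0.0261), Pdgfrb by 1.24 (adjusted p = 0.0330) and Zfp521 by 0.999 (adjusted p = 0.0499). The background of genes called higher was 1.91%. In this list 10 of the 14 means were higher, with a median of 0.49. At an unadjusted p under 0.05, 5 of the 14 were higher and 2 lower, against 13.1% of all genes higher and 9.95% lower. Wnt10b, on the same list, went the other way, by -1.34 (adjusted p = 0.0727, limma). Gata2 and Zfp521 hold back fat cell formation, and Pdgfrb encodes a growth factor receptor of perivascular and progenitor cells.

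Of 13 genes of brown and beige adipocytes, 3 passed, and all were higher in Tsk2 skin, where 1.91% of all genes were called higher. Pdk4, which turns cells from glucose to fat oxidation, differed by 3.44 (adjusted p = 0.0243, limma), Cpt1b, the muscle-type carnitine palmitoyltransferase, by 2.11 (adjusted p = 0.0229) and Cox7a1, a subunit of cytochrome oxidase, by 1.82 (adjusted p = 0.0228). All 3 are also genes of skeletal muscle, whose list mean was 4.77 to 5.94 in Tsk2 and 3.84 to 4.34 in WT skin, and the part of muscle was not tested. Ucp1, the uncoupling protein that defines brown and beige fat, averaged -0.05 in Tsk2 and -0.21 in WT skin (adjusted p = 0.776, limma). Every skin value of Ucp1 was a heavily repeated value, which may mark a dim probe. The list as a whole had a median of 0.27.

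**Figure D3:**
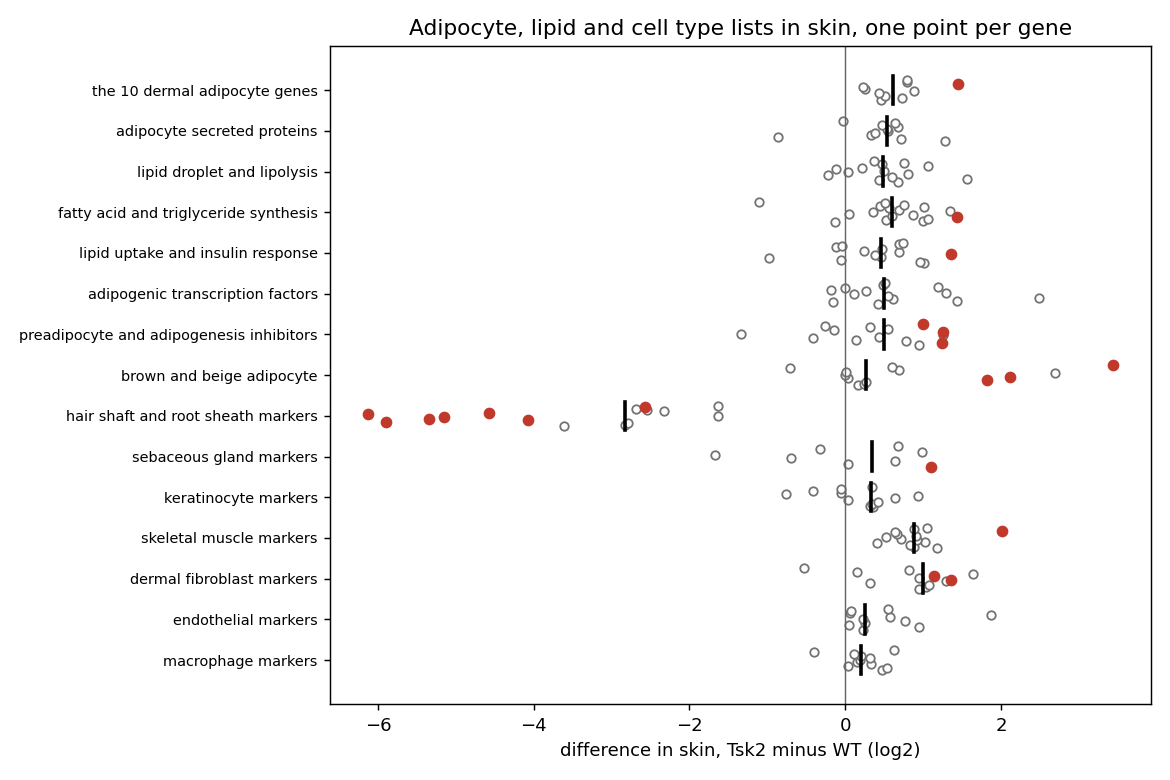
Difference between Tsk2 and WT skin (log2, Tsk2 minus WT) for each gene of 15 lists, with filled points for an adjusted p under 0.05 and a black bar at each list's median. The 10 dermal adipocyte genes have a median of 0.62 and the hair markers of -2.82.

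The skin markers of other cell types, in lists also chosen with earlier results of these data known, moved as follows. Of 15 measured hair shaft and root sheath markers, 7 were lower in Tsk2 skin and 0 higher, with a median of -2.82, where 0.998% of all genes were called lower. The hair keratins Krt34, Krt33a and Krt33b differed by -5.35, -5.89 and -4.07 and trichohyalin (Tchh) by -4.57 (adjusted p = 0.0229 to 0.0284, limma). The hair list mean was 3.72, 0.50, 2.61 and 0.47 in Tsk2 skin, against 5.82, 5.79, 5.72 and 4.32 in WT skin, while the mean of the 10 fat cell genes was 4.56, 5.34, 4.97 and 5.20, against 4.52, 4.35, 4.27 and 4.33. Tsk2 replicate 1 had the highest hair mean and the lowest fat cell mean of the Tsk2 arrays, whereas WT replicate 1 had both the highest hair mean and the highest fat cell mean of the WT arrays. A part of the hair cycle in the fat cell values was not tested.

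Among 12 dermal fibroblast markers, Fbln1 (1.15) and Lum (1.35) were higher in Tsk2 skin (adjusted p = 0.0244 and 0.0356, limma), with a list median of 0.99. The share of all genes called higher was 1.91%. None of 12 keratinocyte, 11 endothelial or 11 macrophage markers passed, with medians of 0.33, 0.25 and 0.21. At an unadjusted p under 0.05, 0, 2 and 1 of them were higher and 0 lower. By the same measure 8 of the 12 dermal fibroblast markers were higher and 1 lower, 8 of the 14 muscle markers were higher and 0 lower, and 14 of the 15 hair markers were lower and 0 higher, against 13.1% of all genes higher and 9.95% lower. The 2 lowest p-values in each were for Ivl (-0.76) and Lor (0.64), Egfl7 (0.55) and Vwf (0.58), and Cd14 (0.63) and Csf1r (0.54), with adjusted p-values of 0.110 to 0.379. Over all 15 lists, with a gene counted in every list that holds it, 13 entries were called higher and 7 lower with all arrays, and 0 and 0 without WT replicate 2. The counts of entries were 0 and 0 without Tsk2 replicate 2, 29 and 11 without dim probes, and 50 and 16 with 1 fit on all arrays. Calls over all genes rose as well. Without dim probes, 1139 of 13996 genes were called higher and 656 lower. With 1 fit on all arrays, 1610 of 19532 genes were called higher and 1204 lower. These settings were planned for the 10 genes and applied to the lists after the data were seen. Over all 19532 genes the skin calls numbered 568 with all arrays and 0 without WT replicate 2, where 4503 genes had an unadjusted p under 0.05 with all arrays.

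The genes whose pattern over the 8 skin arrays was most like the mean of the 10 were Apol6, Aldoa, Pik3r1, Slc4a8, Pxmp2, Ndrg2, Cyp2c55, Retreg1, Rilp and Gm5069, with Pearson correlations of 0.985 to 0.955 among 3451 genes ranked. Aldoa is the glycolytic aldolase of muscle and other tissues, Pik3r1 a regulatory subunit of the insulin-responsive PI3 kinase, and Pxmp2 a peroxisomal membrane channel. Their differences between Tsk2 and WT skin were all positive, from 0.82 (Pxmp2) to 1.33 (Aldoa). This ranking carries no test, since the arrays also share the genotype difference.

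Set against the cultured fibroblasts, skin showed all 10 genes at a higher level, each past the test, where 29.2% of all genes were called higher and 54.1% in either direction. Skin and fibroblast RNA were extracted with different kits, and the fibroblasts were cultured, transfected cells of Col3a1 knockout mice. Tissue, culture, transfection, knockout and kit therefore cannot be told apart. The differences between the mean of the skin groups and the mean of the fibroblast groups ran from 2.06 for Pparg to 7.44 for Plin4, with a median of 5.05. They were 6.89 for Cidec, 6.56 for Slc2a4, 6.30 for Adipoq, 5.54 for Plin1 and 4.56 for Retn, and 3.36, 3.10 and 2.85 for Fabp4, Lpl and Lep. The largest adjusted p was 0.000221, for Lep (limma, 14 arrays). As a check of the tissue labels, all 12 keratinocyte markers were called higher in skin, and of 12 dermal fibroblast markers 9 were called higher and 3 lower.

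**Figure D4:**
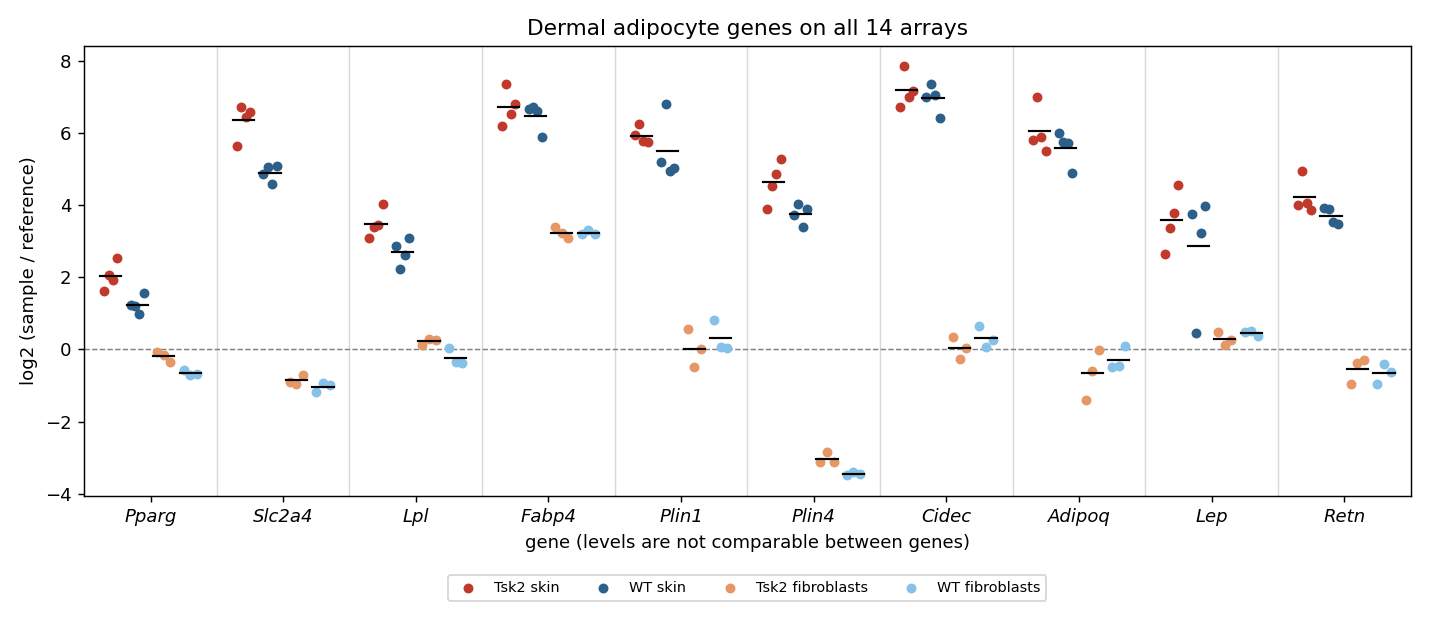
Level of each of the 10 genes as log2 of sample over reference on all 14 arrays, in the order Tsk2 skin, WT skin, Tsk2 fibroblasts and WT fibroblasts, with a bar at each mean and a dashed line at 0. All skin points of a gene lie above its fibroblast points apart from Lep in WT skin replicate 2, at 0.45.

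For 4 of these genes the fibroblast level may lie near the floor of the array, which was not checked with intensities. All 6 fibroblast values of Adipoq, all 6 of Cidec, all 12 probe values of Retn and 5 of the 6 of Plin1 were heavily repeated values, so the size of their differences is uncertain. Fabp4 averaged 3.24 ± 0.15 with Tsk2 Col3a1 and 3.23 ± 0.06 with WT Col3a1 (SD, n = 3 each), more than 3 units above the reference. Of its 18 fibroblast probe values 0 were heavily repeated, as for Lep, Plin4, Slc2a4 and Pparg. Plin4 lay far below the reference there, at -3.03 ± 0.16 and -3.45 ± 0.05. Lep averaged 0.28 with Tsk2 Col3a1 and 0.45 with WT Col3a1, and Adipoq averaged -0.66 and -0.29.

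Within the fibroblasts, the comparison asked whether Tsk2 Col3a1 and WT Col3a1 leave different fat cell genes expressed in the same knockout background. None of the 10 genes passed (limma, adjusted p from 0.291 to 0.986), where 0.0512% of all genes were called in either direction and 0.0154% higher, and 3 had an unadjusted p under 0.05, against 5.53% of all genes on the higher side. Means were higher with Tsk2 Col3a1 for 6 genes and lower for 4, beside 49.8% of all genes with a higher mean, and the median difference was 0.06. The 3 genes with every Tsk2 array above every WT array were Pparg, Plin4 and Lpl, and 9.81% of all genes had that order.

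Pparg read -0.06, -0.16 and -0.34 with Tsk2 Col3a1, against -0.57, -0.72 and -0.69 with WT Col3a1, and the groups were 0.23 apart. The means were -0.19 ± 0.14 with Tsk2 Col3a1 and -0.66 ± 0.08 with WT Col3a1 (SD, n = 3 each), a difference of 0.47 (95% interval 0.20 to 0.75, limma adjusted p = 0.291).

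Plin4 read -3.12, -2.84 and -3.12 with Tsk2 Col3a1, against -3.49, -3.40 and -3.47 with WT Col3a1, below the reference RNA on every array. It differed by 0.43 (limma adjusted p = 0.323). Lpl read 0.117, 0.295 and 0.257 with Tsk2 Col3a1, against 0.027, -0.343 and -0.387 with WT Col3a1, so the groups were 0.09 apart at WT replicate 1. It differed by 0.46 (limma adjusted p = 0.369). With 3 arrays against 3, an exact permutation test cannot give less than 0.1, which each of these genes reached. Slc2a4 averaged -0.85 ± 0.13 with Tsk2 Col3a1 and -1.04 ± 0.14 with WT Col3a1, a difference of 0.19 (95% interval -0.11 to 0.48, limma adjusted p = 0.582). Adipoq, Lep, Plin1 and Cidec had the lower means, with differences of -0.37, -0.17, -0.28 and -0.29, and Retn and Fabp4 differed by 0.12 and 0.01. The 3 Fabp4 probes disagreed, at -0.22, -0.21 and 0.45, as did the 2 Retn probes, at 0.38 and -0.14. None of the genes on the other 14 lists passed in fibroblasts, and 16 of their 180 entries were higher and 14 lower at an unadjusted p under 0.05.

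**Figure D5:**
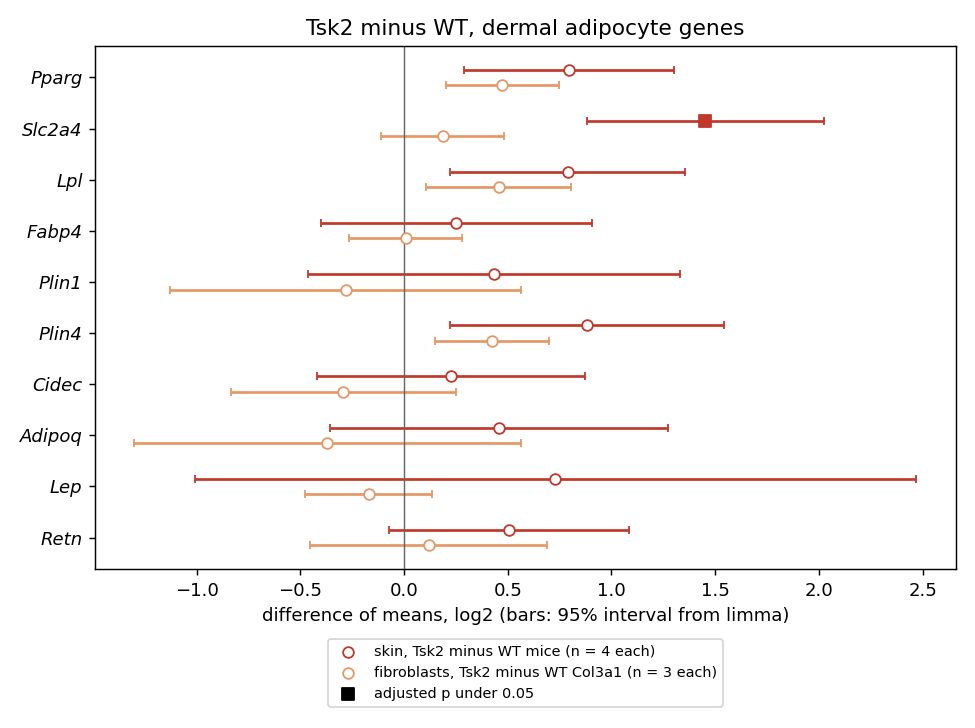
Difference between Tsk2 and WT (log2, Tsk2 minus WT) for each of the 10 genes in skin (4 arrays each) and fibroblasts (3 arrays each), with 95% intervals from limma and a filled square for an adjusted p under 0.05. Slc2a4 in skin, at 1.45, is the filled square.

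The difference between the Tsk2 effect in skin and the Tsk2 effect in fibroblasts was tested directly as an interaction over the 14 arrays. None of the 10 genes passed, where 1.40% of all genes did. The values ran from 0.24 (Fabp4) to 1.27 (Slc2a4), with a median of 0.49 against 0.024 over all genes. For Adipoq, Cidec, Retn and Plin1 their sign and size are uncertain, since all or most fibroblast values were heavily repeated and may lie near the floor of the array. Slc2a4 had an unadjusted p under 0.05 and an adjusted p of 0.0710 (limma, SE 0.32). Pparg, Plin4 and Lpl, the genes with separated groups in fibroblasts, had differences of 0.32 (95% interval -0.29 to 0.93), 0.46 (-0.34 to 1.26) and 0.33 (-0.38 to 1.04). Those intervals hold 0 and also values as large as the skin differences of 0.80, 0.88 and 0.79.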

How the data were processed

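Total RNA of 14 samples (8 of skin, 6 of fibroblasts) was labelled with Cy5 and hybridised on 2-colour Agilent arrays against a Cy3-labelled universal mouse reference, per the labels' protocols, with no dye swap. The authors' deposited values were log ratios of unstated base, read as log2. Steps from scan to ratio are not given in the sources consulted. Intensities and scan batches were not used here. Column medians lay between 0 and 0.043, and 33.8% to 46.7% of an array's probes held values repeated at least 50 times, called heavily repeated above.

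Of 41174 probes, 32664 carried a single gene symbol in the platform annotation and were averaged into 19532 genes. Differences were tested with limma 3.58.1 (R 4.3.3) in separate fits for skin and fibroblasts and a joint fit for skin over fibroblasts and for the interaction, with Benjamini-Hochberg adjustment over all genes and a threshold of 0.05. Single genes were also tested by exact permutation. The number of arrays limits the precision. The script was tested on simulated data. Replicate numbers are shared by some fibroblast samples of both groups. Deviations from the group means correlated at 0.0082 to 0.0194 for same-numbered samples and at -0.0247 to 0.0069 for the others. The samples were not paired in the main fit, and with so few arrays these values cannot show whether a pairing existed.

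The 10 genes and the lists were chosen with earlier results of these data known. All 10 were named. Of each other list, the genes past the threshold were named, at most 4 by lowest p, or else the 2 of lowest p. Ucp1, Wnt10b and Fads3 were named beyond this rule. The genes most like the 10 were those with the highest Pearson correlation with their mean over skin arrays, among genes with an SD of at least 0.5. Alternatives were quantile normalization, median centring, the most variable probe, single probes, zeros as missing, no dim probes, array weights, other eBayes settings, a fit on all arrays, arrays left out, a replicate block, and 3A and 3B of WT fibroblasts as 1 sample.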

Additional observations from a re-analysis of the deposited data

Results flagged for a closer look

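In 2 of the 20 groups of 4 skin values that were examined, a single array lay far from the other 3 by Dixon's criterion, which flags about 1 in 20 groups by chance. Plin1 read 6.79 in WT skin replicate 2, above the other WT arrays at 4.94 to 5.20. Fabp4 read 5.90 in WT skin replicate 4, below the other WT arrays at 6.60 to 6.71.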

How the results depend on the processing

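Of the 10 genes, 1 was called in skin; the count was 0 after quantile normalization and with trend and robust eBayes settings, 2 without dim probes (Pparg and Slc2a4), 4 with 1 fit on all arrays (Lpl, Plin4, Pparg and Slc2a4), and 0 to 1 with each array left out. It was 0 without Tsk2 skin replicate 2, 3 or 4 or WT skin replicate 1, 2 or 3. The share of all genes called in skin was 12.8% of 13996 genes tested without dim probes. It was 14.4% of 19532 genes with 1 fit on all arrays, against 2.91% in the main fit. For Slc2a4 the difference kept its direction throughout, at 1.33 to 1.69, with adjusted p-values of 0.00167 to 0.105 over 17 alternatives. For the interaction the count of 0 became 1 (Slc2a4) without dim probes and with array weights, and 0 to 1 with each array left out, being 1 without Tsk2 skin replicate 1 or WT skin replicate 4. All 10 genes stayed called in skin over fibroblasts under every alternative, including WT groups only and Tsk2 groups only. In fibroblasts 0 genes were called under every alternative, including the replicate block, which gave 0, and 3A and 3B as 1 sample. The labels do not say whether same-numbered fibroblast samples were paired, and the block took the calls over all genes to 0, against 10 without it. Signs turned for Lep in skin (-0.072 without WT replicate 2, and -0.072 to 1.105 over arrays left out), for Retn in fibroblasts (-0.0094 and -0.028 without Tsk2 replicate 3 and WT replicate 1, and -0.028 to 0.325 over arrays left out) and for Fabp4 in fibroblasts (-0.084 after quantile normalization, -0.21 with the most variable probe, -0.045 with array weights, and -0.074, -0.0121 and -0.0094 without Tsk2 replicate 1, WT replicate 1 and WT replicate 3B, and -0.074 to 0.0765 over arrays left out). The causes were not tested. Calls over all genes ran from 0 to 2814 in skin (568 as reported; 1795 without dim probes, 1341 with array weights, 1827 without WT replicate 4, 2814 with 1 fit on all arrays, and 0 without any of the 6 arrays named above), from 0 to 39 in fibroblasts (10 as reported) and from 6 to 1492 for the interaction (273 as reported). Signal over background was not available to grade dim probes.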
